A study of Mus musculus with 18 samples.

Results

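Interferon gamma primed adipose stromal cells (ASC) and the extracellular vesicles (EVs) released by primed cultures were compared by small RNA sequencing, in 5 primed EV and 4 primed ASC libraries. These are 9 of the 18 mouse libraries of the study, taken by their source names (primed EV 1 to 5 and primed ASC 2 to 5), and all 2009 listed miRNA hairpin loci were used. The comparison asks how the miRNA content of the vesicles differs from that of the parent cells in the primed state. All libraries carry the strain label NGL, the tissue label adipose and the age label adult. Cells of both groups were exposed to interferon gamma for 24 h in alpha MEM with 2% EV-free serum and then cultured for 48 h in the same kind of medium. Cell RNA came from TRIzol followed by an RNeasy kit and vesicle RNA from a SeraMir column kit, so the isolation method and the compartment cannot be told apart. Each TruSeq Small RNA library was made from 5 microlitres of RNA.

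Nothing in the labels ties the replicates to separate animals or cultures, and p-values therefore measure only the spread between these samples, which may be technical. The ASC libraries carry the same molecule label as the vesicles (extracellular vesicle miRNA) and were taken as cells from their source names. The titles number some libraries differently from the source names: primed EV 1 and 5 share the title number 5, and the title of primed EV 3 carries IFG1+2 where the others carry IFG1 or IFG2. Fewer cells of a type and less RNA per cell cannot be told apart in such bulk samples.

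miRNAs are short RNAs cut from hairpin transcripts by Drosha and Dicer and loaded into Argonaute proteins, where the seed (bases 2 to 8) pairs with target mRNAs. Neighbouring hairpins are often cut from 1 transcript, so that their mature products start from the same supply. Stromal cells release part of their miRNA in vesicles, and vesicle miRNA is studied as a means by which these cells act on immune and tissue cells.

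The mature sequences below come from RefSeq (GRCm38.p6), which lists a mature arm for 228 of the 245 loci tested. The counts are per hairpin and do not tell the arms apart, so the arm shown is 1 listed product of the locus. Sequences run 5′ to 3′, with the seed in capitals. The first set shows products of loci that were far more abundant in vesicles than in cells.
miR-19a-3p: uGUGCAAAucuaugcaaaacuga
miR-301a-3p: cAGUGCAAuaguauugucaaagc
miR-101a-3p: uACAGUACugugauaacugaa
miR-340-5p: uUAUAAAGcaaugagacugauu
miR-30e-5p: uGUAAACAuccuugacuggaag
miR-21a-5p: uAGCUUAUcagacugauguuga
miR-451a: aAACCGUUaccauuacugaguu
miR-126a-3p: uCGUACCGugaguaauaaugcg

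The next set shows products of loci that were far more abundant in the cells.
miR-193b-3p: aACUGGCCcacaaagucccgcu
miR-125a-5p: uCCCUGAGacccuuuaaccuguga
miR-125b-5p: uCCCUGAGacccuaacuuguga
miR-574-3p: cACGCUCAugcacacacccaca
miR-671-5p: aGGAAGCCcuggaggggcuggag
miR-149-5p: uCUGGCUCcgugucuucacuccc
miR-99b-5p: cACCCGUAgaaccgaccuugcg
miR-214-3p: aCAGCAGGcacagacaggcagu

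The let-7 family is shown side by side because its members share 1 seed and still took different places between vesicles and cells.
miR-98-5p: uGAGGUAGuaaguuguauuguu
let-7f-5p: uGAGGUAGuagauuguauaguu
let-7g-5p: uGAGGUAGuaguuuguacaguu
let-7i-5p: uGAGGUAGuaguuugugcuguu
let-7a-5p: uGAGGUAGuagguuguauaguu
let-7e-5p: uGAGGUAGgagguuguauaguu
let-7c-5p: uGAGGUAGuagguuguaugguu
let-7d-5p: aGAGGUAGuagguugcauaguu
let-7b-5p: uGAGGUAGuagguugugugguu

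Total counts were 626951 to 3052942 per primed EV library and 180812 to 895721 per primed ASC library, and primed ASC 4 was the shallowest. Vesicles and cells lay apart on the leading principal component (72.9% of variance). The next (9.58%) set the libraries numbered 3 and 4 of both groups against the others. These 4 libraries also held more of the epithelial locus Mir205, with 482 and 302 counts in primed EV 3 and 4 against 13 to 38 in the other vesicle libraries, and 367 and 186 in primed ASC 3 and 4 against 44 and 40 in primed ASC 2 and 5. The part of this in the results was not tested. Without these 4 libraries, an alternative chosen after the data were seen that leaves 3 vesicle and 2 cell libraries, 68 loci were higher and 52 lower in vesicles of 261 tested, of which 66 and 50 had the same call with all libraries. Across the 53 loci with at least 1000 CPM in both groups, the log2 levels of 2 vesicle libraries correlated with r from 0.951 to 0.996, those of 2 cell libraries from 0.922 to 0.983 and those of a vesicle and a cell library from 0.642 to 0.804. The mesenchymal markers (11 loci such as Mir143, Mir145a, Mir214 and Mir22, all with counts) held 69.5% to 71.6% of vesicle and 30.5% to 42.1% of cell counts. Of their 4936463 vesicle counts, Mir22, Mir143 and Mir21a held 2019626, 1602590 and 718112. The set did not go 1 way: Mir145a and Mir214 were lower in vesicles (log2 fold change -2.02 and -2.23), and Mir10a, Mir10b and Mir152 had no call. Epithelial markers (11 loci, all with counts) held 0.355% to 0.664% of vesicle and 0.439% to 1.34% of cell counts, most of them at Mir182. Muscle, liver and neural markers held at most 0.00198% of any library.

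Vesicle counts were concentrated on fewer loci than cell counts. The 10 most abundant loci held 78.8% to 80.3% of counts in the vesicle libraries and 65.4% to 68.5% in the cell libraries, and 25 to 27 loci made up 90% of vesicle counts against 34 to 37 in cells. The effective number of loci, which is the exponential of the Shannon entropy of the count shares, was 17.2, 15.4, 14.6, 14.7 and 15.95 in primed EV 1 to 5 and 30.5, 30.9, 33.0 and 31.0 in primed ASC 2 to 5. The groups did not overlap, and the means were 15.6 ± 1.05 (SD, n = 5) and 31.4 ± 1.09 (SD, n = 4; exact two-sided permutation p = 0.0159, also after Benjamini-Hochberg adjustment over 2 tests, the smallest p that 126 assignments allow). At an equal depth of 180812 counts, 269 ± 5.38 loci would have had a count in vesicles (n = 5) and 301 ± 4.41 in cells (n = 4; exact two-sided permutation p = 0.0159). The second difference was -32.6 loci, and over only the 245 loci that passed the filter on low counts it was -2.14 (exact permutation p = 0.556), while that of the effective number was -15.8 over all loci and -15.6 over those 245.

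**Figure D1:**
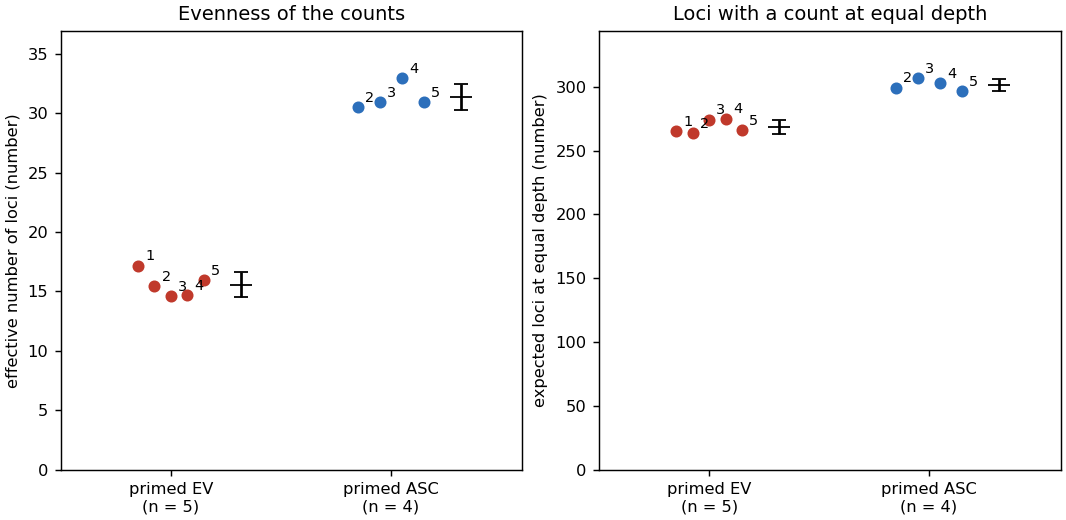
Evenness of the counts in each library. The left panel plots the effective number of loci, the right panel the expected number of loci with a count at 180812 counts; each numbered point is 1 library, and the black mark is the mean with its SD. The 5 primed EV libraries lie below the 4 primed ASC libraries in both panels.

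Of the 245 loci tested, 167 (68.2%) differed between primed EVs and primed ASC (edgeR, adjusted p under 0.05 by Benjamini and Hochberg), 88 (35.9%) higher and 79 (32.2%) lower in vesicles. At 131 loci (53.5%) the libraries of the 2 groups did not overlap. The difference was called and at least 2-fold at 143 loci (58.4%). Directions are relative to the scaling of the libraries: TMM put the median log2 fold change over the 245 loci at 0.02, whereas scaling by totals only put it at -0.69 and gave 58 loci higher and 118 lower. All 79 loci called lower and 58 of the 88 called higher kept their call under library totals.

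**Figure D2:**
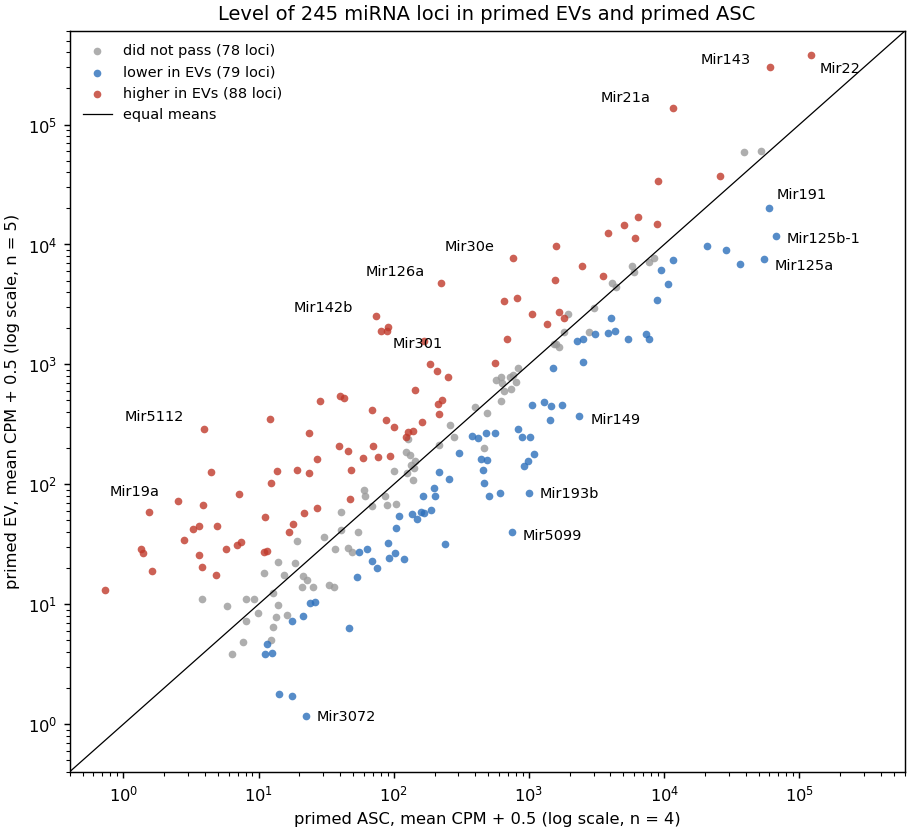
Mean level of the 245 loci in primed ASC (x axis) and primed EV libraries (y axis), as CPM + 0.5 on log scales. Each point is a locus, coloured by its call, and the line marks equal means; 88 loci were higher and 79 lower in vesicles, and Mir21a, Mir143 and Mir22 are abundant loci above the line, with Mir125a, Mir125b-1 and Mir191 below it.

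The most abundant vesicle loci were Mir22, Mir143, Mir21a, Mir10b and Mir10a, and the most abundant cell loci were Mir22, Mir125b-1, Mir143, Mir191 and Mir125a. Mir21a, a locus of growing and injured cells in the UTR of Vmp1 (chromosome 11 from 86584067 to 86584158, GRCm38), held 145696, 118107, 137224, 141331 and 149707 CPM in primed EV 1 to 5. In primed ASC 2 to 5 it held 9952, 11530.2, 13897 and 11062 CPM. All vesicle libraries lay above all cell libraries, and the locus was 11.9-fold higher (log2 fold change 3.58, SE 0.22; edgeR adjusted p = 7.47e-11). Mir22, in an exon of its host transcript Mir22hg (chromosome 11 from 75463716 to 75463810), ranged from 332993 to 438081 CPM in vesicles and from 100016 to 135025 CPM in cells, without overlap, at 1.65 (SE 0.24). Mir10a and Mir10b, which lie in Hox gene clusters, were also among the leading loci but did not pass. Mir10b was at 0.21 with a 95% interval of -0.64 to 1.07 on the log2 scale and had a value of -0.08 without primed EV 1, which held 108557 CPM against 39334 to 55187 CPM in the other 4 vesicle libraries. It was at -0.05 without primed ASC 3, at -0.18 without primed ASC 4 and at -0.01 without the libraries numbered 3 and 4. Mir10a was at 0.59 with an interval of 0.00 to 1.19, and library totals alone turned it to -0.11 and Mir10b to -0.48.

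Mir125a, Mir125b-1 and Mir191 lost most of their share in vesicles. Mir125a, related to the developmental regulator lin-4 and placed in an exon of Spaca6 (chromosome 17 from 17830803 to 17830887), held 8068, 6339.6, 8005, 8374 and 6751 CPM in primed EV 1 to 5. In cells it held 55297, 58495, 65912 and 38223 CPM in primed ASC 2 to 5, and it was 7.26-fold lower in vesicles (-2.86, SE 0.18; edgeR adjusted p = 7.47e-11). Its paralog Mir125b-1 (chromosome 9 from 41581926 to 41582002) took 0.883% of vesicle and 8.35% of cell counts and was 5.75-fold lower (-2.52, SE 0.15). Mir191, a locus active in most tissues (chromosome 9 from 108568295 to 108568414), took 1.49% and 7.42% and was lower at -1.59 (SE 0.16). None of the 3 loci had overlapping libraries. Mir125b-1 shares its mature sequence with Mir125b-2, so the split of counts between these 2 loci is uncertain.

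The 10 largest increases with no overlap between libraries fell into 3 kinds. Mir142b, Mir144, Mir223, Mir451a and Mir126a are loci of blood and endothelial cells and are described with those lists. Mir5119, Mir5112 and Mir6538 belong to the list of loci taken to resemble rRNA or other abundant RNA. Mir19a, of the 17-92 cluster, and Mir301, which encodes miR-301a in an intron of Ska2 (chromosome 11 from 87113004 to 87113089), are loci that many growing cells express. Mir301 held 1706, 1558, 2002, 2059 and 2083 CPM in primed EV 1 to 5 and 47.3, 75.3, 170.2 and 28.6 CPM in primed ASC 2 to 5. It was 25.3-fold higher in vesicles (4.66, SE 0.39; edgeR adjusted p = 2.72e-09). Mir19a (chromosome 14 from 115044000 to 115044081) held 75.2, 65.2, 55.5, 113 and 49.9 CPM in vesicles and 2.73, 0, 4.15 and 1.24 CPM in cells and was higher at 5.11 (SE 0.52).

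A further 4 loci were chosen after their values were seen, because they reach high vesicle levels. Mir30e, in an intron of Nfyc (chromosome 4 from 120772606 to 120772697), held 8885, 6031, 7603, 8625 and 7289.8 CPM in primed EV 1 to 5. Its cell libraries held 649, 750.2, 1013 and 637 CPM, and it was 10.1-fold higher in vesicles (3.34, SE 0.23; edgeR adjusted p = 2.97e-10). Mir101a, whose product represses the Polycomb enzyme Ezh2, held 1317 to 2538 CPM in vesicles and 67.1 to 116 CPM in cells (4.43, SE 0.35). Its paralog Mir101b was at 4.24 (SE 0.34), and the sequence the 2 loci share leaves their split uncertain. Mir340, in an intron of Rnf130 (chromosome 11 from 50069702 to 50069799), held 475, 476, 539.9, 620.4 and 605 CPM in vesicles and 27.3, 40.3, 70.6 and 19.9 CPM in cells. It was 14.9-fold higher, and none of these 4 loci had overlapping libraries.

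Of 9 rRNA-like loci tested, 4 were higher and 1 was lower in vesicles (55.6% called, against 68.2% over all loci), with a median log2 fold change of 0.92 against 0.02 over all loci. Under library totals the counts were 4 and 2 (median 0.25). With a trend on base composition (G+C) removed, 6 of 7 were higher and 0 lower (median 4.28), and over the 9 primed libraries only the median was 2.83 of 6 loci. Mir5112 held 279.9, 103, 297, 181 and 597 CPM in primed EV 1 to 5 and 5.45, 0, 8.3 and 0 CPM in primed ASC 2 to 5 (6.47, SE 0.69), with 7.37 without primed ASC 2 and 5.87 without primed ASC 5. Mir5119 had 209 counts in vesicles and 1 in cells, a ratio of 62.2 per total count with a 95% interval of 11.0 to 2468 that covers counting error only, and its log2 fold change of 6.67 was 8.69 without primed ASC 4, which held the single count, and 5.90 without primed ASC 2. Mir6538 had 113 counts against 1, a ratio of 33.6 (5.91 to 1340), and 89 of the 113 were in 1 library. Its log2 fold change of 4.77 was 3.87 without primed EV 2 and 6.71 without primed ASC 2. Mir5099 (chromosome 12 from 36816205 to 36816278) was the largest decrease of all, with 54.5, 30.9, 41.9, 24.9 and 43.7 CPM in vesicles and 685, 651, 901 and 740.4 CPM in cells, 19.3-fold lower (-4.27, SE 0.28; edgeR adjusted p = 1.04e-10). Whether the counts at these loci come from miRNAs was not tested.

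Besides Mir5099 and Mir125a, the 10 largest decreases were Mir3072, Mir193b, Mir7035, Mir1934, Mir129-2, Mir700, Mir574 and Mir671. Mir193b, linked to fat and muscle cell differentiation (chromosome 16 from 13449523 to 13449601), held 109, 67.9, 66.8, 70.4 and 108 CPM in primed EV 1 to 5. In primed ASC 2 to 5 it held 719, 1129, 1067 and 1097 CPM, so that vesicles were 11.99-fold lower without overlap (-3.58, SE 0.27; edgeR adjusted p = 1.07e-09). Mir574, in an intron of Fam114a1 (chromosome 5 from 64970318 to 64970395), held 61.9 to 103 CPM in vesicles and 389 to 879 CPM in cells (-2.85, SE 0.26). Mir671, in an exon of Chpf2, held 119.7 to 171 CPM in vesicles and 503 to 1238 CPM in cells (-2.70, SE 0.26). Mir149, in an intron of Gpc1 and named after its values were seen, held 299.9 to 415 CPM and 1533 to 3176 CPM (-2.68, SE 0.34). Mir3072, Mir7035, Mir1934 and Mir700 were weakly counted, at no more than 64.5 CPM in any library. Without primed EV 2, Mir3072 moved from -4.15 to -5.49 and Mir7035 from -3.36 to -4.38, and without primed EV 4 Mir700 moved from -2.90 to -3.57, all with their calls kept, but Mir7035 lost its call without the libraries numbered 3 and 4.

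**Figure D3:**
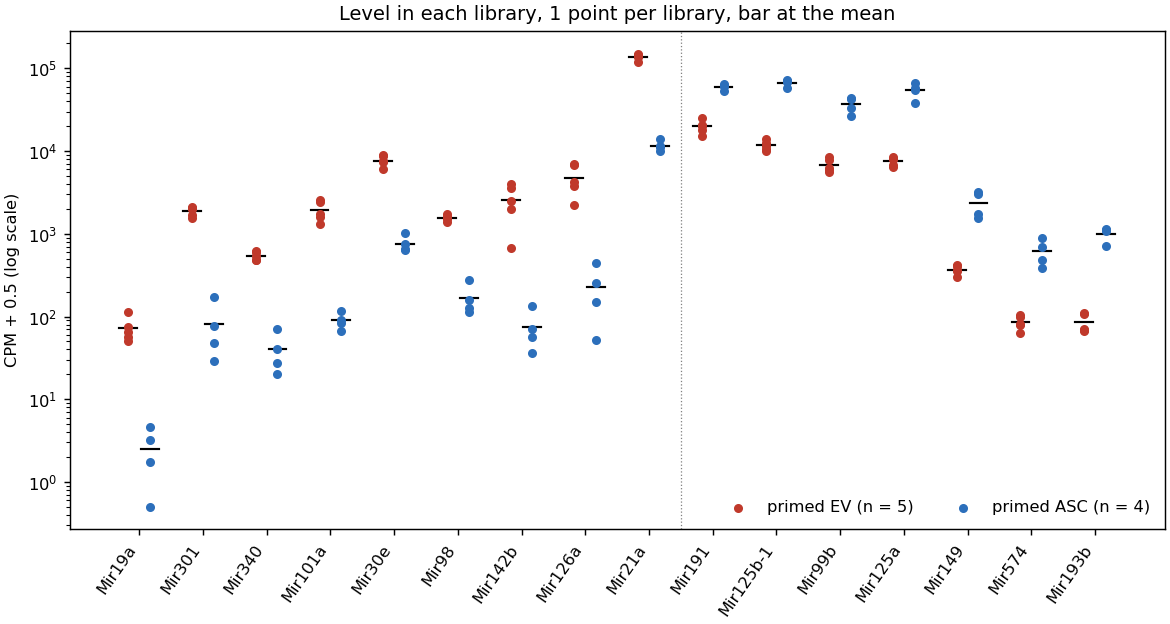
Level of 16 loci in each library, as CPM + 0.5 on a log scale. Each point is 1 library (red, primed EV, n = 5; blue, primed ASC, n = 4), and the bars are means; the 9 loci left of the dotted line were higher and the 7 to its right lower in vesicles, and at none of the 16 do the groups overlap.

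Members of 1 cluster could take opposite places. Loci on the same strand with gaps of at most 10 kb formed 34 clusters with 113 tested loci. In 14 clusters at least 1 member was called higher and another lower in vesicles, in 5 all members were higher, in 0 were all lower, 14 had 1 direction beside uncalled members and 1 had no call. The number with opposite calls was 5 to 15 under the alternatives, lowest without the libraries numbered 3 and 4 and 7 with the G+C trend removed. Over all loci 35.9% were higher and 32.2% lower, so sets of unrelated loci could also hold both calls. Whether neighbours differ from such sets was not tested. Ratios between neighbours within a library do not depend on how libraries are scaled. Most pairs with a ratio were chosen for their opposite calls in these data, so a shifted ratio adds no separate support for those calls. Mir143 and Mir145a, a smooth muscle and fibroblast pair on chromosome 18, had 124 to 211 counts of Mir143 per count of Mir145a in vesicles and 6.2 to 11.998 in cells. Mir143 was higher in vesicles at 2.32 (SE 0.23) and Mir145a lower at -2.02 (SE 0.23), both without overlap between libraries.

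On chromosome 17, Mir99b, Mirlet7e and Mir125a lie between 17830188 and 17830887 within Spaca6. Mir99b was at -2.42 and Mir125a at -2.86, whereas Mirlet7e between them was higher at 0.61 (edgeR adjusted p = 0.00651). Vesicle libraries held 0.654 to 0.784 counts of Mirlet7e per count of Mir125a and cell libraries 0.0452 to 0.118, without overlap. With library totals alone Mirlet7e turned to -0.11, and it lost its call without primed ASC 2 or 3 and with the G+C trend removed. Its own increase thus depended on the scaling, on those libraries and on the G+C trend, while the ratio to its neighbours did not use the scaling. The counted Mirlet7e feature lies on the strand opposite to the RefSeq hairpin, and counting without strand credits it with reads from either strand.

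The 17-92 cluster, a growth-linked set of hairpins in Mir17hg on chromosome 14, held calls in both directions. Mir19a was at 5.11, Mir20a at 3.71, Mir17 at 2.40 and Mir18 at 1.33, all higher in vesicles, and Mir92-1 was lower at -0.61 (edgeR adjusted p = 0.0323). Mir92-1 held 3763 to 7718 CPM in vesicles and 7188 to 13034 CPM in cells, which overlap, and it lost its call without primed ASC 2, with no filter on low counts and with the G+C trend removed. Mir18 lost its call with library totals alone and without the libraries numbered 3 and 4. Mir19a had 0.00839 to 0.0174 counts per count of Mir92-1 in vesicles and 0.000187 to 0.000731 in cells. The products of this transcript differ in base composition, and 3 of them are shown beside miR-19a-3p above.
miR-20a-5p: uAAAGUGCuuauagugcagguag
miR-17-5p: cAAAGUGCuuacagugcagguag
miR-92a-3p: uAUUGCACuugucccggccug

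Other clusters also held members with opposite calls. In Dnm3os on chromosome 1, Mir199a-2 was at 1.13 and Mir214 at -2.23, with 0.291 to 0.321 counts of Mir199a-2 per count of Mir214 in vesicles and 0.0153 to 0.0587 in cells. Mir199a-2 lost its call with library totals alone and without the libraries numbered 3 and 4. Mir27b was at 1.41 and its neighbour Mir23b at -1.17, and in the paralogous cluster Mir27a was at 1.63, Mir24-2 at 2.09 and Mir23a at -0.55. Mir23b and Mir23a had overlapping libraries and lost their calls without the libraries numbered 3 and 4, and Mir23a also with no filter on low counts and with the G+C trend removed. Mir24-2 overlaps Mir3074-2 on the other strand, and these loci share sequence with copies elsewhere. Mir30b was at 1.15, a call lost with library totals alone, and Mir30d at -1.09. Mir34c was at 1.42 and Mir34b at -1.19, and vesicles held 13.3 to 15.8 counts of Mir34c per count of Mir34b against 1.41 to 3.44 in cells. Mir34b, Mir351 and Mir503 lost their calls without the libraries numbered 3 and 4. Mir503 also lost its call with no filter on low counts, without primed ASC 2 and with the G+C trend removed. On the X chromosome Mir542 was at 4.00 and Mir322 at 1.58, while Mir351 was at -0.78 and Mir503 at -1.63. Mir450b of that cluster had 172 counts in vesicles and 3 in cells, a ratio of 17.1 per total count (95% interval 5.74 to 83.5), with 106 of the 172 in 1 library, and its log2 fold change of 4.46 was 5.34 without primed ASC 5.

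A further 3 pairs of neighbours had smaller differences. Mir221 was at 0.66 and Mir222 at -0.74, Mirlet7a-2 at 0.88 and Mir100 at -0.61, and Mir93 at 0.87 and Mir106b at -0.74. Mir221 turned to -0.01 with library totals alone and lost its call without primed EV 2, without primed ASC 2, 3 or 4 and without the libraries numbered 3 and 4. Its call also ended with the replicate block by source number, with TMMwsp scaling, a variant of TMM, and with the G+C trend removed. Mir100 kept its call in 11 of 23 alternatives, and Mir93 lost its own with library totals alone, without primed ASC 2, 3 or 4 and without the libraries numbered 3 and 4. The ratios of these 3 pairs, chosen for their opposite calls, did not overlap between vesicles and cells. There were 0.653 to 1.34 counts of Mir221 per count of Mir222 in vesicles and 0.234 to 0.596 in cells. In contrast, Mir451a and Mir144 rose together and their ratio overlapped, at 4.4 to 7.81 in vesicles and 5 to 9.12 in cells, and so did that of Mir98 to Mirlet7f-2. Both of the overlapping pairs come from clusters with all members called higher.

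**Figure D4:**
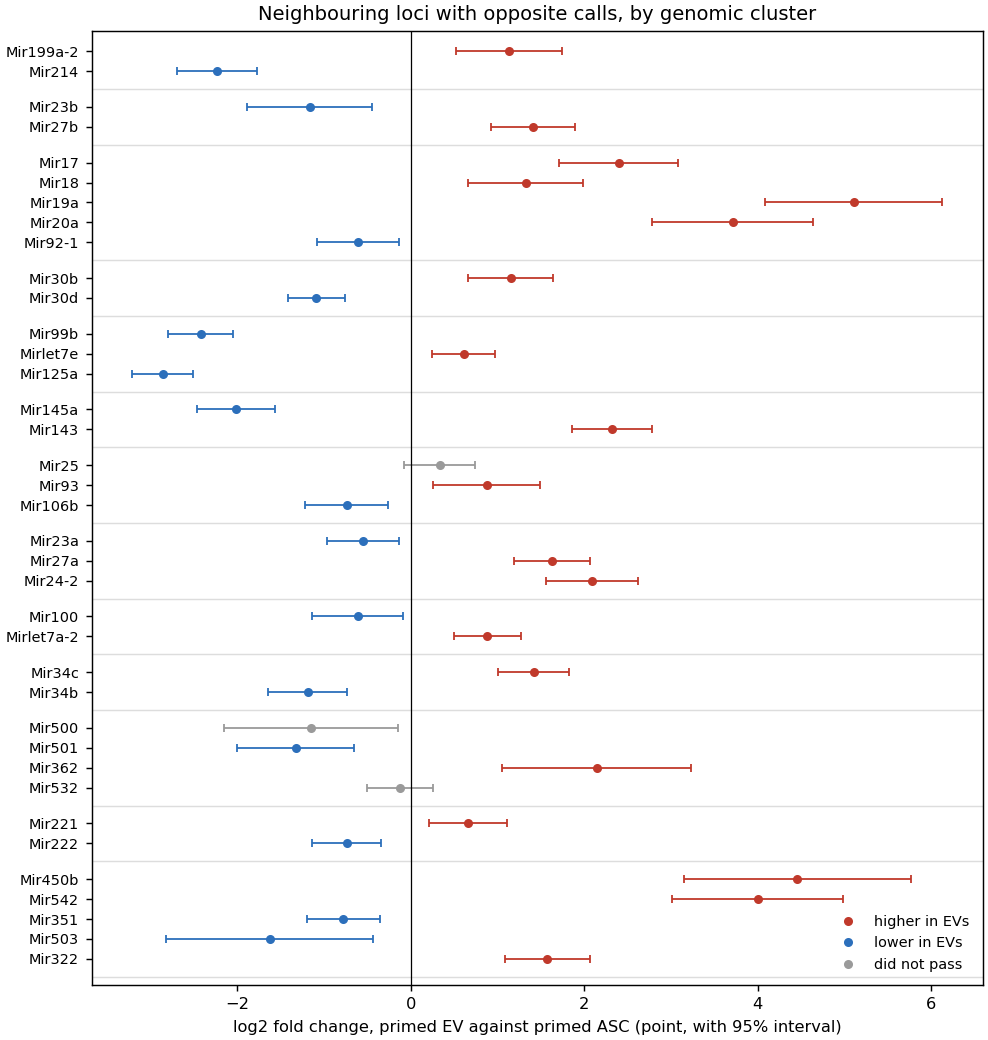
Members of 13 genomic clusters with opposite calls, listed by cluster, with the log2 fold change of primed EV against primed ASC (point) and its 95% interval (bar). Red members were higher and blue members lower in vesicles, and grey members did not pass; each cluster has red and blue members on either side of 0, as for Mir143 at 2.32 and Mir145a at -2.02.

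The imprinted Dlk1-Dio3 region on chromosome 12 holds the largest set, with 35 tested loci, of which 10 were higher and 8 lower (51.4% called, against 68.2% over all loci; median 0.08). Mir376a held 192, 285, 272, 269.6 and 331 CPM in primed EV 1 to 5 and 30.9, 16.1, 24.9 and 21.1 CPM in primed ASC 2 to 5 (3.50, SE 0.26). Mir667 held 82.7, 245, 211, 189 and 158 CPM in vesicles and 1853, 909, 992 and 565 CPM in cells (-2.60, SE 0.34). Within a library, Mir376a had 1.16 to 2.3 counts per count of Mir667 in vesicles and 0.0169 to 0.0384 in cells. Mir376c at 2.75, Mir380 at 2.39 and Mir411 at 0.74 were also higher, and Mir485 at -2.04 and Mir409 at -1.07 were lower. The arms that RefSeq lists for the locus named Mir376c are miR-376b-3p and miR-376b-5p. Mir411, at 13794 to 16634 CPM in vesicles, lost its call with library totals alone (0.04), with the G+C trend removed, without primed ASC 3 or 4 and without the libraries numbered 3 and 4. Mir1197 had 92 counts in vesicles and 3 in cells, a ratio of 9.12 per total count (95% interval 3.03 to 45.1). The 33 tested loci from Mir379 to Mir3072, which form 1 cluster, kept opposite calls in all 23 alternatives. Under library totals 7 loci of the region were higher and 17 lower.

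Loci that share a seed could take different places. Of 15 seed families with at least 3 tested loci, 7 held calls in opposite directions, and 2 to 9 did so under the alternatives. These 7 count let-7 loci in 2 families, by the seed of the 5p arms (GAGGUAG) and of the 3p arms (UAUACAA). Loci without a listed arm, such as Mir30b and Mir30d, are in no family. With 35.9% of all loci higher and 32.2% lower, families of unrelated loci could also hold both calls, and a difference from them was not tested. The 11 let-7 loci with a listed arm of the seed GAGGUAG had 7 higher and 1 lower. Mir98 held 1625, 1373, 1579, 1749.6 and 1505 CPM in primed EV 1 to 5 and 126, 159, 112 and 272 CPM in primed ASC 2 to 5, and was 9.26-fold higher (3.21, SE 0.27; edgeR adjusted p = 3.78e-09). Mirlet7f-1 at 2.61, Mirlet7f-2 at 2.55, Mirlet7g at 2.11 and Mirlet7i at 1.91 were higher as well (Mirlet7f-2 at 3.20 without primed ASC 5), while Mirlet7b was lower at -0.66 and Mirlet7d had a value of -0.13 without a call. Mirlet7c-1 was higher at 0.52 with overlapping libraries, turned to -0.20 with library totals alone and -0.09 with the G+C trend removed, and lost its call without primed ASC 2. Without the libraries numbered 3 and 4, Mirlet7c-1 and Mirlet7b lost their calls and Mirlet7d was at 0.06. Among the printed arms, miR-98-5p and let-7f-5p have the fewest G and C bases, 7 each, and let-7b-5p has the most, 10. The arms between them did not follow this order. The arm let-7a-5p has 8 and Mirlet7a-1 was at -0.43 without a call, whereas let-7i-5p has 9 and Mirlet7i was higher. Mirlet7a-2, for which only a 3p arm is listed, was higher at 0.88, so Mirlet7a-1 alone does not give the place of let-7a. With let-7d-5p, which also has 9, Mirlet7d had no call. The whole let-7 list of 12 tested loci, which adds Mirlet7a-2, had 8 higher and 1 lower, or 9 of 12 called, with a median of 0.75, and with library totals alone 5 higher and 4 lower with a median of 0.03.

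The family with the seed AGUGCAA was the only one of the 15 with all members higher, Mir301 at 4.66, Mir130b at 1.14 and Mir130a at 0.73, although Mir130a and Mir130b lost their calls with library totals alone, and Mir130a lost its call without the libraries numbered 3 and 4 and had a value of -0.07 with the G+C trend removed. The family with the seed CCCUGAG was the only one with all members lower, Mir125a at -2.86, Mir125b-1 at -2.52, Mir125b-2 at -1.72 and Mir351 at -0.78, although Mir351 lost its call without the libraries numbered 3 and 4 and turned to 0.44 with the G+C trend removed. A further 2 families split between close relatives. Mir15a was higher, with 301 to 516 CPM in vesicles and 45.7 to 99.4 CPM in cells (2.57, SE 0.26). Mir15b was lower, with 195 to 283 and 817 to 938 CPM (-1.84, SE 0.20). Mir29c was at 3.01 and Mir29b-1 at -1.35, a call that was lost without primed EV 2 or 3, with no filter on low counts and without the libraries numbered 3 and 4. Their products differ at few bases and, within each pair, have the same number of G and C bases.
miR-15a-5p: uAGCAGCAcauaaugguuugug
miR-15b-5p: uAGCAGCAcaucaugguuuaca
miR-29c-3p: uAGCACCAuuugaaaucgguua
miR-29b-3p: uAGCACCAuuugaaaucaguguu

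Mir181d was higher at 0.99, and Mir181a-1 and Mir181a-2 were lower at -0.71 and -1.70. Mir181d lost its call with library totals alone and Mir181a-1 with no filter on low counts. Mir26b was higher at 2.38 and Mir26a-1 at 0.66, while Mir26a-2 was lower at -1.95. Mir26a-1 and Mir26a-2 list the same miR-26a-5p, so their opposite calls concern 1 product and the split of counts between them is uncertain. Mir26a-2 lost its call with no filter on low counts and without the libraries numbered 3 and 4. Of the 245 loci, 56 have a copy, that is a run of 20 bases found in another hairpin, and counting without options for reads with several places can leave such loci short of reads. Of these 56, 24 were higher and 15 lower (69.6% called), and of the 189 others 64 were higher and 64 lower (67.7%).

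Base composition differed between the loci on either side. The median G+C of the listed mature arms, averaged per locus, was 44.2% in 83 loci higher in vesicles and 56.8% in 71 loci lower, beside 48.9% in all 228 loci with a sequence. Across these loci, which are not independent replicates, the correlation of G+C with the log2 fold change was -0.459 (Pearson's r) and -0.567 (Spearman's rho). Of the 57 loci with the least G+C 34 were higher and 4 lower, and of the 57 with the most 4 were higher and 34 lower. Deviations of log2 CPM from the mean over libraries had an r with G+C of -0.268 to -0.465 in the 5 vesicle libraries and of 0.303 to 0.468 in the 4 cell libraries. That mean holds both groups, so opposite signs follow largely from the contrast itself and the libraries add no separate support. Within clusters, every member called higher was paired with every member called lower where both had listed sequences. In these 81 pairs the member higher in vesicles had less G+C in 76 and more in 5. The pairs reuse loci and so are not independent, and their members lie up to 37607 bp apart. Of these pairs 60 come from crossing 10 higher with 6 lower loci of the Dlk1-Dio3 cluster, and in the other clusters the counts were 17 and 4. The RNA of cells and vesicles was isolated with different kits, and the part of isolation and library preparation in this relation was not tested. With a linear trend on G+C removed from each library, an alternative chosen after the data were seen, 78 loci were higher and 60 lower of 228, of which 64 and 46 had the same call as before.

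**Figure D5:**
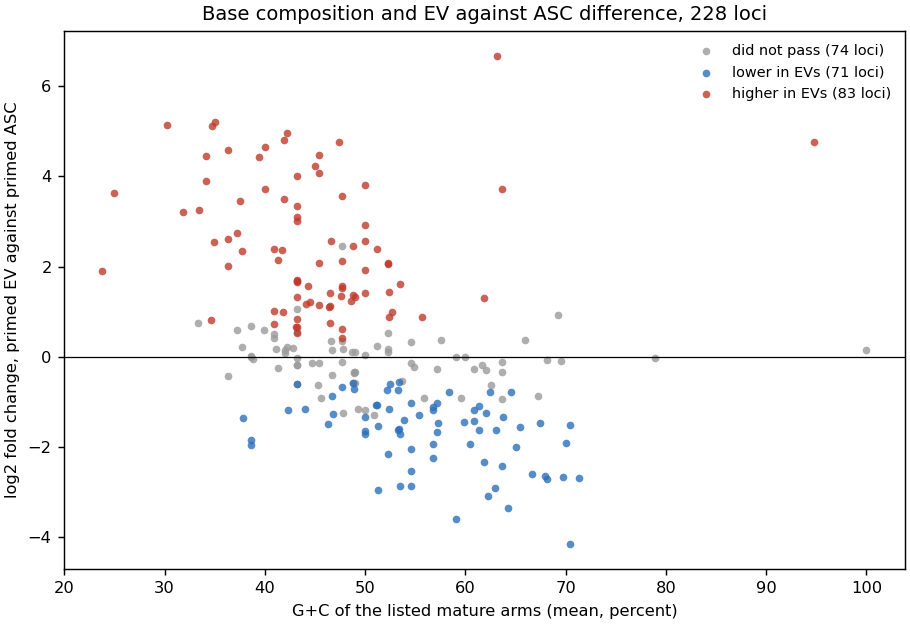
G+C of the mature arms listed for a locus (x axis, mean of the arms in percent) and log2 fold change of primed EV against primed ASC (y axis) for 228 loci, coloured by call. Loci higher in vesicles lie mostly to the left, with a median of 44.2%, and loci lower in vesicles to the right, with a median of 56.8%.

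Short motifs that have been linked to the release or retention of miRNAs were counted in the listed arms. On the strand of the miRNA, GGAG was found in an arm of 16.2% of the 228 loci, of 4.82% of the loci higher and of 31.0% of those lower in vesicles. CCCU was found in 19.3% of all, 9.64% of the higher and 36.6% of the lower loci. GGCU was found in 17.1%, 12.05% and 22.5%. These motifs hold mostly G and C, and whether their shares follow the G+C of the arms was not tested. A match is not evidence of binding.

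Loci of blood and endothelial cells stood higher in vesicles. Of 7 tested blood cell loci 6 were higher and 1 lower (68.2% were called over all loci), with a median of 4.58 against 0.02 over all loci, and the counts were the same under each of the 3 other scalings. Mir142b, which overlaps the white cell miRNA Mir142 on the other strand, held 3544, 667, 2013, 4033 and 2518 CPM in primed EV 1 to 5 and 56.3, 69.9, 133 and 36.0 CPM in primed ASC 2 to 5 (5.19, SE 0.57; edgeR adjusted p = 1.33e-07). Mir451a, the red cell miRNA that is matured by Ago2 without Dicer, held 2728, 682, 1614, 3376 and 1859 CPM in vesicles and 70.0, 105, 166 and 21.1 CPM in cells (4.58, SE 0.65). Mir126a, the endothelial miRNA in Egfl7, held 6948, 2251, 3801, 6733 and 4196 CPM in vesicles and 148, 253, 444 and 52.2 CPM in cells (4.46, SE 0.56). These 3 moved together from library to library: primed EV 1 and 4 were high and primed EV 2 low for each, and primed ASC 4 was the highest and primed ASC 5 the lowest cell library for each. Mir144 at 5.14, Mir223 at 4.97, Mir150 at 3.71 and Mir486 at 2.61 were also higher, Mir486 with overlapping libraries, and Mir342, which many cell types express, was lower at -1.08. Mir223 moved to 5.59 without primed ASC 2 and to 4.35 without primed ASC 5.

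These loci are a small part of the counts. Red cell markers (3 of 3 loci with counts) held 0.0709% to 0.270% of counts in vesicle libraries and 0.00329% to 0.0310% in cell libraries. White cell and platelet markers (3 of 3) held 0.0764% to 0.355% and 0.00587% to 0.0249%, and the endothelial marker Mir126a 0.198% to 0.496% and 0.00601% to 0.0592%. The part of RNA from such other cell types in these differences was not tested. Mir192, the tested locus of the liver list, was higher at 2.46 (SE 0.34), while the defining liver locus Mir122 had 16 counts in all vesicle and 1 in all cell libraries. Of 21 loci known as abundant in serum, 9 were higher and 7 lower (76.2% called; median 0.33), or 7 and 10 under library totals.

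Of 18 tested loci linked to inflammation and interferon responses, 7 were higher and 5 lower (66.7% called, near the 68.2% over all loci; median 0.18), or 5 and 8 under library totals. Mir147, which Toll-like receptor signals induce in macrophages, held 141, 51.1, 137, 264 and 49.9 CPM in primed EV 1 to 5 and 4.54, 24.2, 16.6 and 7.45 CPM in primed ASC 2 to 5. It was 10.9-fold higher (3.45, SE 0.58; edgeR adjusted p = 2.84e-05) without overlap, and its 2 lowest vesicle libraries were primed EV 5 and primed EV 2. Mir34a was higher at 1.11, a call lost with library totals alone. Mir155, a locus induced in many inflamed cells, held 1112, 1138, 1642, 2378 and 1114 CPM in vesicles and 967, 1366, 1631 and 2172 CPM in cells, which overlap, with a value of -0.05 and a 95% interval of -0.59 to 0.49. Its sign turned without primed EV 1 or 5 or primed ASC 5, at most to 0.14. Mir146, the locus of miR-146a, a brake on NF-kappaB signalling, had a value of 0.42 with an interval of -0.57 to 1.41, and -0.31 with library totals alone.

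The same contrast in unprimed cultures gave 162 of 245 calls (66.1%), from other libraries of the same fit. No locus passed the test of the difference between the primed and the naive contrast (edgeR interaction, adjusted p under 0.05), 26 (10.6%) had an unadjusted p under 0.05, DESeq2 called 3 and limma-voom 0. The smallest p was that of Mir143 at 0.00119 (edgeR adjusted p = 0.232), with a log2 fold change of 2.32 in the primed and 1.15 in the naive contrast.

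Loci of non-canonical origin were mostly lower in vesicles. Of 9 tested mirtrons and other hairpins that bypass Drosha or Dicer, 7 were lower and 1 (Mir451a) was higher (32.2% and 35.9% over all loci), with a median of -1.27, and with library totals alone 8 were lower. Mir320, which is made without Drosha, held 1204, 891, 1066, 937 and 1106 CPM in primed EV 1 to 5 and 1914, 2538, 3628 and 1944 CPM in primed ASC 2 to 5 (-1.27, SE 0.20). Mir3102 held 54.5 to 101 CPM in vesicles and 457 to 606 CPM in cells (-2.64, SE 0.25), and Mir877 was lower at -1.24 with overlapping libraries. With the G+C trend removed 3 of 8 were lower and 2 higher, and the median was -0.50. Without the libraries numbered 3 and 4, 4 of 9 were lower and 1 higher, and Mir877 lost its call.

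Loci linked to fat cell differentiation held 12 higher and 7 lower of 26 (73.1% called, against 68.2% over all loci; median 0.29), and with library totals alone 8 higher and 13 lower. Mir30a at 1.53, Mir148a at 1.68, Mir27a at 1.63 and Mir130a, a repressor of the fat cell regulator Pparg, at 0.73 were higher. Mir193b at -3.58 and Mir378a at -1.81 were lower. Of 36 mesenchymal loci 13 were higher and 15 lower (77.8% called; median 0.11), and of 9 loci of the 17-92 clusters and their paralogs 5 were higher and 2 lower (77.8% called; median 0.87), with 3 and 3 under library totals and 6 and 0 with the G+C trend removed (median 1.21). Of 10 epithelial loci 3 were higher and 1 lower (40.0% called, against 68.2% over all loci; median 0.62). These counts were 0 and 2 under library totals (median -0.12), without primed ASC 2 they were 0 and 1 (median 0.22), and without the libraries numbered 3 and 4 they were 0 and 0 (median -0.05). With limma-voom 1 was higher and 1 lower (median 0.06), as over the 9 primed libraries only (median -0.02 of 6 loci). Mir141 was at 4.07 (SE 1.52) with 1.49 to 97.3 CPM in vesicles and 1.24 to 5.38 CPM in cells, which overlap, and lost its call without primed EV 3 (3.47), without primed ASC 2 or 5, with library totals alone, with limma-voom and without the libraries numbered 3 and 4. Mir182 had a value of 0.17 with an interval of -0.60 to 0.94, and was at -0.54 with library totals alone, -0.13 without primed ASC 2 and -0.08 without primed ASC 4. Of 3 neural loci 1 was lower, Mir129-2 at -2.95. No striated muscle locus reached the filter.

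By place in the genome, 33 of 92 loci in introns were higher and 30 lower (68.5% called), and of 78 in intergenic sequence 28 were higher and 21 lower (62.8%). Of 63 loci in exons of longer transcripts 23 were higher and 22 lower (71.4%), and of 12 in UTRs 4 were higher and 6 lower (83.3%). Over all loci 68.2% were called, and the shares in introns, exons and intergenic sequence lay near that. The medians lay from -0.94 over the 12 UTR loci to 0.19 in intergenic sequence, against 0.02 over all loci.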

How the data were processed

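The deposited values are raw read counts per miRNA hairpin locus. Per the file headers, the authors counted reads with featureCounts 1.5.3 against Ensembl release 76 without strand (strand option 0) and set no option for multi-mapping or overlapping reads. Per the submitters' processing notes, bcl2fastq, STAR 2.0.4, Subread, featureCounts 1.45 and GRCm38 were used. The files name genes by Ensembl identifier; 1899 of 2009 were named from the GENCODE annotation and 28 from RefSeq places, and the 110 without a GENCODE match held 5 of 17629699 counts.

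The 18 libraries were fitted in 1 model of 4 groups with edgeR 4.0.16 (limma 3.58.1, R 4.3.3): TMM scaling, a low-count filter by group that kept 245 loci, and the quasi-likelihood test with Benjamini-Hochberg adjustment at 0.05. The SE of a log2 fold change is its size divided by the square root of F, and 95% intervals span 1.96 SE. CPM values use TMM-scaled totals and are compared between libraries only. No replicate pair agreed within sampling noise. Exact permutation tests used scipy 1.17.1, with pandas 2.3.3 and numpy 2.4.6, and DESeq2 1.42.0 and limma-voom served as alternatives. The fit was tested on simulated data.

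Clusters join loci on 1 strand with gaps of at most 10 kb, and 0.5 was added to both counts in neighbour ratios. A copy was defined by a run of 20 bases shared with another hairpin, since mature sequences were not at hand for all loci. Intervals on count ratios cover counting error only, as reads carry no molecular identifiers.

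Named loci were the 10 largest increases and decreases that passed, did not overlap and reached 10 CPM in the higher group, the 5 loci with the highest share in each group, as many as 6 abundant members per list, and members of clusters or seed families with opposite calls. Other named loci were chosen after their values were seen. The members and lists were chosen with earlier results of these data known.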

Additional observations from a re-analysis of the deposited data

Results flagged for a closer look

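A library was singled out where its gap to the nearest of the others was large for its group by Dixon's test at the 95% level. Of 218 groups of values examined, 18 were singled out, and chance alone flags about 5% of groups.

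Among the cell libraries, primed ASC 5 and primed ASC 2 were involved most often. Mirlet7i had its highest cell level in primed ASC 5, at 14447 CPM against 6499 to 7667 CPM in the others. Primed ASC 5 stood at 9367 CPM for Mirlet7a-2, above the 4851 to 5151 CPM of the other cell libraries. For Mirlet7g, primed ASC 5 held 1415 CPM and the other cell libraries 559 to 689 CPM. Mir148a had its highest cell level in primed ASC 5, at 6475 CPM against 2843 to 3262 CPM in the others. Primed ASC 4 stood at 4.15 CPM for Mir5119, above the 0 CPM of the other cell libraries. For Mir181a-1, primed ASC 4 held 1337 CPM and the other cell libraries 1555 to 1582 CPM. Mir6538 had its highest cell level in primed ASC 2, at 0.909 CPM against 0 CPM in the others. Primed ASC 2 stood at 719 CPM for Mir193b, below the 1067 to 1129 CPM of the other cell libraries. For Mir146, primed ASC 2 held 35.4 CPM and the other cell libraries 66.4 to 72.6 CPM. Mir3102 had its highest cell level in primed ASC 2, at 606 CPM against 457 to 481 CPM in the others. The effective number of loci of primed ASC 4 was 33.0, against 30.5 to 31.0 in the other cell libraries.

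Among the vesicle libraries, primed EV 2 was involved most often. Primed EV 1 stood at 108557 CPM for Mir10b, above the 39334 to 55187 CPM of the other vesicle libraries. For Mir542, primed EV 2 held 23.5 CPM and the other vesicle libraries 44.4 to 49.9 CPM. Mir16-1 had its lowest vesicle level in primed EV 2, at 157 CPM against 212 to 233 CPM in the others. Primed EV 2 stood at 3588 CPM for Mir182, below the 6752 to 7687 CPM of the other vesicle libraries. For Mir222, primed EV 4 held 2778 CPM and the other vesicle libraries 2291 to 2376 CPM. Mir181d had its highest vesicle level in primed EV 5, at 304 CPM against 214 to 239 CPM in the others. Primed EV 5 stood at 206 CPM for Mir877, above the 69.3 to 95.8 CPM of the other vesicle libraries.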

How the results depend on the processing

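Of 101 named loci that passed, 73 kept their call in the 14 other settings and the 9 fits that left out 1 library wherever they were tested. The number passing was 154 to 167 when 1 library was left out, with 78 to 87 higher and 76 to 81 lower. With library totals alone 58 loci were higher and 118 lower. Without the primed libraries numbered 3 and 4 of both groups, chosen after seeing the data, 68 were higher and 52 lower with fewer libraries in the fit, 20 named calls were lost, and Mir10b (-0.011) and Mirlet7d (0.056) turned in sign. The interaction with the naive contrast had 0 calls, but 3 without a filter on low counts (1 higher, 2 lower) and 3 with DESeq2 (all 3 lower); the cause was not tested. Loci detected at equal depth differed by -2.14 over the filtered loci (exact permutation p = 0.556), and the cause of this change was not tested. They differed by -34.2 to -30.8 when 1 library was left out. The effective number differed by -16.2 to -15.2.

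Signs turned with library totals alone, which shift the median of all loci to -0.69, for Mir10a (-0.11), Mir10b (-0.48), Mirlet7e (-0.11), Mir221 (-0.015), Mirlet7c-1 (-0.20), Mir146 (-0.31) and Mir182 (-0.54). With a trend on mature G+C removed, chosen after seeing the data, they turned for Mir10a (-0.29), Mir10b (-0.47), Mir351 (0.44), Mirlet7c-1 (-0.090), Mir130a (-0.067), Mir146 (-0.40) and Mir182 (-0.042). Mir155 was at 0.040 without a filter. When 1 library was left out, Mir10b ranged from -0.18 to 0.68, Mir155 from -0.29 to 0.14 and Mir182 from -0.13 to 0.57; the cause was not tested.

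With a replicate block by source number 77 loci were higher and 73 lower of 218, and by title number 80 and 75. Same-numbered vesicle and cell libraries deviated together with r of 0.392, 0.296, 0.252 and 0.0755, so the numbers do not establish pairs, and not every library matched its own number best. Of the named calls, the block by source number ended that of Mir221 only. Primed EV 3 and 4 deviated together with primed ASC 3 and 4 (r from 0.252 to 0.318), so the libraries numbered 3 and 4 share a deviation in both groups. The r of primed EV 3 and 4 with primed ASC 2 and 5 was -0.284 to -0.269. Deviations were taken from the mean of each group, so these negative values follow largely from the positive ones and add no separate support. The shallowest library, primed ASC 4 with 180812 counts, limits low loci.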
